A study of Mus musculus with 4 samples.

Results

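Stefins, cystatins and fetuin B are related protease inhibitors of the cystatin superfamily, and 8 of their genes were followed in newborn mouse epidermis that lacks Skiv2l in keratinocytes. The 8 genes, taken by name from the 54752 gene identifiers of each table, were the stefins Stfa1, Stfa2, Stfa3, Stfa2l1 and Cstb, the secreted cystatins Cst3 and Cst6, and fetuin B (Fetub). They were chosen with their difference between genotypes already known, so that difference is given below as a description and was not tested. Total RNA was sequenced from the epidermis of 4 C57BL/6 pups at postnatal day 0, with 2 pups of genotype Skiv2l fl/fl K14-Cre, called knockouts below, and 2 of genotype Skiv2l ctl, called controls. Skiv2l is the RNA helicase that feeds the exosome in the cytoplasm. In the knockouts it is deleted by a Cre recombinase under the keratin 14 promoter, so that cells of the epidermis other than keratinocytes keep the gene. The controls are littermates that carry floxed Skiv2l alleles without Cre or are heterozygotes with Cre, and which of these each pup was is not given in the sources used here. Skiv2l itself, with 19.3 and 19.1 FPKM in control pups against 10.8 and 8.55 in knockout pups, was lower (log2 fold change -0.92, limma adjusted p = 0.00368). Without either control library its adjusted p was 0.0562 and 0.0547.

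The cystatin superfamily is built on a small protein fold that inserts like a wedge into the active site of papain-like cysteine proteases, among them the lysosomal cathepsins. Stefins stay inside the cell, and stefin A is a cytosolic inhibitor of stratified epithelia that is also built into the cornified envelope. Mice carry a cluster of stefin A genes on chromosome 16 where humans have a single one. Cystatins such as cystatin C (Cst3) and cystatin M/E (Cst6) are secreted, and fetuin B is a secreted relative that acts on metalloproteases of the astacin family instead. All levels below are FPKM, fragments scaled by the authors for transcript length and library size, so that levels can be compared between genes. Fold changes are differences of log2(FPKM + 1), knockout minus control, with the standard error of the limma fit, and values after ± are the SD over 2 pups.

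The 4 Stfa genes lie in 1 cluster and share the sequence just upstream of their RefSeq start. It is printed here because it shows how closely the stefin A genes are related there. The windows of 30 bases come from the RefSeq promoters of GRCm38.p6 and run 5′ to 3′ on the strand of the gene, with the TATA-like letters TTTAAA in capitals. They cover chr16:36277110-36277139 for Stfa1 and chr16:36156770-36156799 for Stfa2l1, both on the plus strand, and chr16:36408371-36408400 for Stfa2 and chr16:36455402-36455431 for Stfa3, both on the minus strand.
Stfa1: cggataccTTTAAAaccctgagtctcagtg
Stfa2: cagaaaccTTTAAAaccctgagtctctatg
Stfa3: agataaccTTTAAAaccccgagtctcagtg
Stfa2l1: cagaaaccTTTAAAaccctgagtctctttg
The first capital lies 30 bases before the RefSeq start in Stfa1, 29 in Stfa2, 31 in Stfa3 and 33 in Stfa2l1. The windows of Stfa1 and Stfa2 lie inside the gene positions given below, which begin further upstream. Whether these bases are coding in another transcript was not tested. Stfa2 and Stfa2l1 were identical at 29 of the 30 bases, and Stfa3 shared 23 with either of them. Over the 250 bases upstream of the start, identity ran from 80.2% between Stfa2 and Stfa3 to 89.4% between Stfa2 and Stfa2l1.

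The same 250 bases upstream of every RefSeq start were searched on both strands for short letter strings. TTTAAA, which reads the same on both strands, was found in 12.1% of 32851 promoters, and the longer TTTAAAACC, which contains it and was picked after the windows had been read, in 0.344%. All 4 Stfa genes held both. None of them held the canonical TATA box TATAAA (12.4% of promoters), the AP-1 letters TGANTCA (6.75%) or the GC box GGGCGG (32.7%). Cst3 held GGGCGG and no other of these strings. Of the 2 RefSeq starts of Fetub, both had GGGCGG upstream and the first also had TATAAA. Cst6 and Cstb had no entry in the promoter table. These matches describe letters and not bound sites.

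The lengths of the coding sequences separate the genes by class. Stfa2, Stfa3 and Stfa2l1 each have 103 codons, stop codon left out, in 3 exons, Stfa1 has 128 and Cstb 98, while the secreted Cst3 and Cst6 have 140 and 149. Fetub, whose protein holds tandem cystatin domains, has 388 codons in 8 exons. Identity in coding nucleotides was counted over all columns of a global alignment, gaps included, so a difference in length lowers it. Stfa2 and Stfa2l1 were 96.4% identical. Stfa2 and Stfa3 were 80.9% identical, with 250 identical bases in 309 columns. Stfa1, whose coding sequence is longer, had 246 identical bases with Stfa3 in 402 columns, or 61.2%. Cstb was 55.4% identical to Stfa2, and Cst3 was 51.4% identical to Cst6. Fetub was between 20.8% and 28.2% identical to the other 7. These values are capped by its greater length and do not show how far its sequence has diverged. Of the 75-base stretches of Stfa1 transcripts 9.16% occur in other genes, of those of Stfa2 5.79% and of those of Stfa2l1 7.83%, so that reads from them may have been divided between genes. Stfa3, Cstb, Cst3, Cst6 and Fetub share no stretch of this length.

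All 8 genes passed the filter of FPKM above 0.5 in at least 1 library, Stfa2l1 through the knockouts only. In 7 of the 8 genes both knockout libraries lay above both controls, as in 18.2% of the 13609 protein-coding genes tested. In Cst3 both lay below, as in 55.3%. Nothing is read from these counts, since the genes were chosen on this contrast. The median log2 fold change was 1.25 over the 8 genes and -0.20 over all genes tested. Scaling each library to the same median moved the latter to -0.03 and the former to 1.46.

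**Figure D1:**
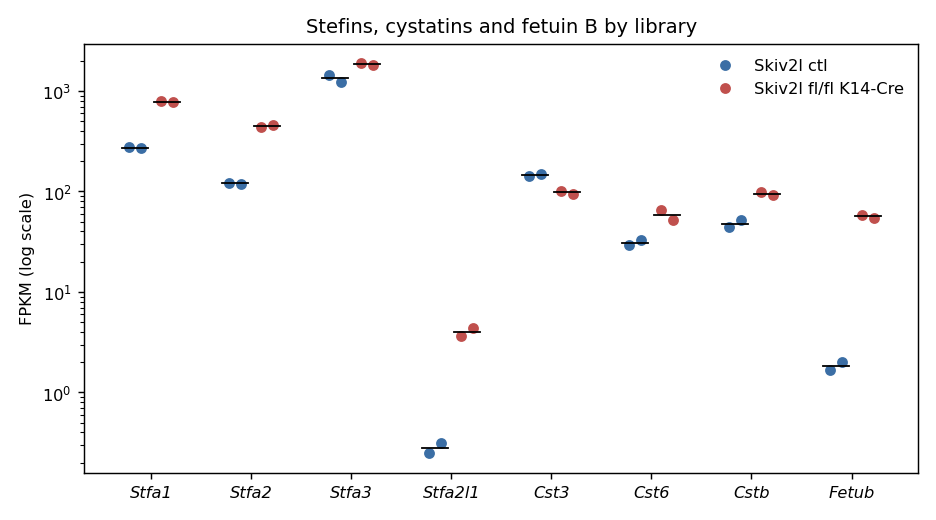
FPKM on a log axis of the 8 genes in each of the 4 libraries (points), with the mean of each genotype as a black bar. The points of the genotypes do not overlap for any of the 8 genes, and Cst3 alone has its knockout points, 101 and 94.5, below its control points, 143 and 148.

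Stfa3 (ENSMUSG00000054905.2, chromosome 16, 36450537 to 36455392, minus strand of GRCm38, as for all gene positions here) was the most abundant of the 8 genes in both genotypes and ranked 12 among all tested genes in each. Its FPKM was 1446 and 1222 in control pups against 1878 and 1833 in knockout pups. The controls differed from each other by more than the knockouts did, and the groups did not overlap. The means were 1334 ± 159 and 1855 ± 31.5, a ratio of 1.39 and 0.48 on the log2 scale (standard error 0.12). The difference was 0.69 with median scaling and 0.08 with quantile normalization.

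Stfa1 (ENSMUSG00000071562.6, chromosome 16, 36276951 to 36285373, plus strand) had 278 and 269.8 FPKM in control pups against 799 and 772 in knockout pups. The pups of a genotype lay close together compared with the distance between genotypes. The means were 274 ± 5.61 and 785 ± 19.0, a ratio of 2.87 and 1.52 on the log2 scale (standard error 0.08). All of the shared stretches of Stfa1 occur in the neighboring family gene BC100530, which was more abundant than Stfa1 in every library. Stfa1 stood at 21.7% and 21.6% of the FPKM of BC100530 in control pups and at 33.8% and 35.7% in knockout pups, so the pair did not keep 1 ratio.

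Stfa2 (ENSMUSG00000022902.8, chromosome 16, 36403992 to 36408457, minus strand) had 121 and 120.0 FPKM in control pups against 439 and 464 in knockout pups. The means were 120.3 ± 0.399 and 451 ± 17.7, a ratio of 3.75 and 1.90 on the log2 scale (standard error 0.08). Of the 3 abundant Stfa genes this was the highest ratio and Stfa3 had the lowest. Stfa2l1 (ENSMUSG00000059657.5, chromosome 16, 36156811 to 36161953, plus strand), the near copy of Stfa2, was barely detected in the controls, at 0.247 and 0.314 FPKM, and reached 3.66 and 4.36 in the knockouts. Its means were 0.281 ± 0.0469 and 4.01 ± 0.50, a ratio of 14.3. The log2 fold change of Stfa2l1 was 1.96 (standard error 0.14) with a pseudocount of 1 and 3.43 with 0.1. Of its stretches, 6.67% occur in Stfa2, and its FPKM was 0.205% and 0.262% of that of Stfa2 in the controls against 0.833% and 0.940% in the knockouts. The part of shared reads in the values of Stfa2l1 was not tested.

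Summed over the 4 Stfa genes, FPKM was 1728 ± 164 in controls and 3096 ± 32.3 in the knockouts, a ratio of 1.79. In TPM, which sums to the same total in each library, the 4 genes held 0.513% and 0.438% of all transcripts in control pups against 0.836% and 0.811% in knockout pups. The makeup of the sum differed as well. Stfa3 supplied 78.4% and 75.8% of the summed FPKM in control pups against 60.2% and 59.6% in knockout pups. Stfa1 supplied 15.1% and 16.7% against 25.6% and 25.1%, and Stfa2 6.54% and 7.44% against 14.1% and 15.1%. In a bulk sample, more cells that express a gene and more RNA per cell cannot be told apart.

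The stefin A cluster holds 11 family rows over 335.4 kb, 10 of which passed the filter, among them 6 that are not among the 8 genes. The 6 are Csta1, Gm5483, Gm5416, 2010005H15Rik, BC117090 and BC100530, whose coding sequences have 96 or 97 codons. All 6 passed an adjusted p under 0.05 with higher values in the knockouts (limma, adjusted over all genes tested), against 8.99% of all tested genes called higher and 25.4% called lower (1223 and 3455 genes, or 1894 and 1623 with median scaling). The family list was chosen with earlier results of these data known. Gm5416, which RefSeq names Csta3, went from 5.64 and 6.85 FPKM to 164 and 139 (log2 fold change 4.39 ± 0.12 as standard error, limma adjusted p = 2.5e-05). BC100530, at rank 13 in the controls and 10 in the knockouts, went from 1283 and 1250.0 to 2364 and 2164 (log2 fold change 0.84, limma adjusted p = 0.00250). Csta1 went from 71.3 and 71.7 to 194 and 184 (log2 fold change 1.39, limma adjusted p = 0.000236). Without a filter on FPKM the calls of BC100530 and BC117090 were lost (adjusted p = 0.332 and 0.124). In Gm5416, BC100530 and Csta1 both knockout libraries lay above both controls.

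The other family genes of the cluster each had a close copy within it. Gm5483 (RefSeq Cstdc4) went from 1.21 and 1.01 FPKM to 4.23 and 4.94, and 2010005H15Rik (RefSeq Csta2) from 0.489 and 0.568 to 2.99 and 2.44, with log2 fold changes of 1.40 and 1.28. They are 96.9% identical in coding nucleotides, and 12.5% of the stretches of 2010005H15Rik occur in Gm5483. BC117090 went from 80.5 and 65.0 to 126 and 109 (log2 fold change 0.69, limma adjusted p = 0.0113), and without the second control library its adjusted p was 0.0823. It is 95.2% identical to BC100530, with 20.4% of its stretches in that gene, and it stood at 6.27% and 5.20% of the FPKM of BC100530 in control pups and at 5.34% and 5.02% in knockout pups. Of the stretches of BC100530, 16.3% occur in other genes. How reads of BC117090 and BC100530 were divided was not tested. Of the 8 cluster genes with a RefSeq promoter, TTTAAAACC was present upstream of 6, the 4 Stfa genes with Gm5483 and Gm5416, while Csta1 held TTTAAA alone and 2010005H15Rik neither.

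**Figure D2:**
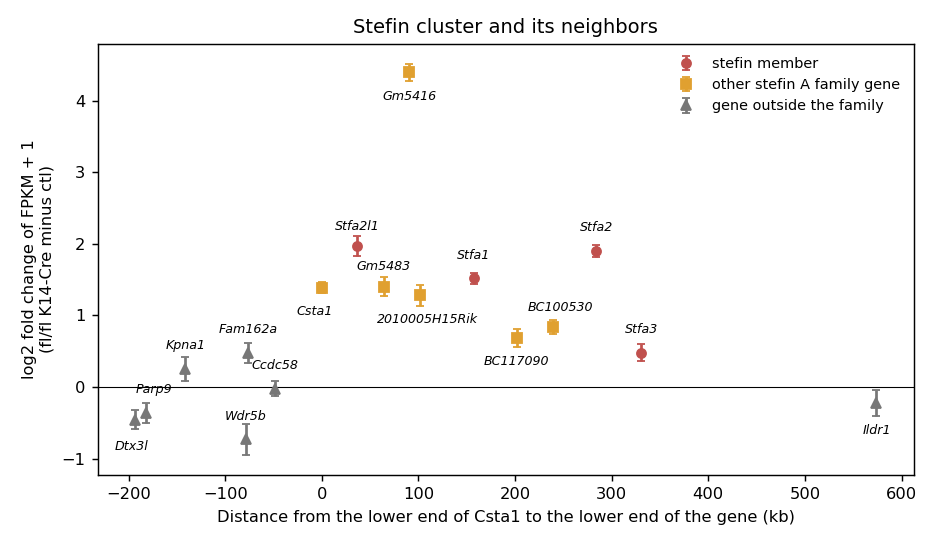
Log2 fold change (knockout minus control) with its standard error for the tested genes within 250 kb of a Stfa gene, against the distance in kb between the lower coordinate of each gene and that of Csta1. The 10 stefin genes, from 0.48 for Stfa3 to 4.39 for Gm5416, all lie above 0, and the 7 genes outside the family lie between -0.73 and 0.48.

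Genes around the cluster lay on both sides of 0. Of the 37 rows within 250 kb that are not stefins, 28 are not protein coding and 7 passed the filter. Fam162a was higher, with 86.9 and 80.8 FPKM in control pups against 102 and 134 in knockout pups (log2 fold change 0.48, limma adjusted p = 0.0422). Dtx3l (log2 fold change -0.46, limma adjusted p = 0.0421) and Wdr5b (-0.73, limma adjusted p = 0.0467) were lower. Each of these 3 calls was lost when either control library or the second knockout library was left out. Those of Dtx3l and Wdr5b were also lost with median scaling (limma adjusted p = 0.135 and 0.0957). The call of Fam162a was also lost with quantile normalization, without a trend and without a filter (limma adjusted p = 0.0689, 0.0662 and 0.226). That of Dtx3l was also lost with quantile normalization and without a filter (0.190 and 0.149). Kpna1, Parp9, Ccdc58 and Ildr1 did not pass the threshold. Over the 10 tested stefin genes, summed FPKM was 3147 ± 198 in controls and 5825 ± 211 in the knockouts, a ratio of 1.85, or 0.913% and 0.818% of all TPM against 1.60% and 1.50%.

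**Figure D3:**
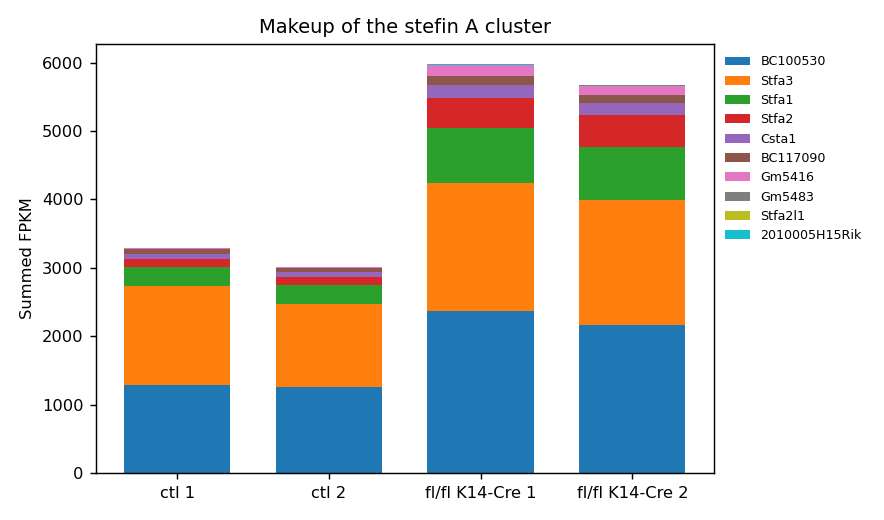
Summed FPKM of the 10 tested stefin A family genes in each library, stacked by gene. BC100530 holds 39.0% and 41.6% of the sum in control pups against 39.6% and 38.1% in knockout pups, while the share of Stfa3 is 44.0% and 40.6% against 31.4% and 32.3%.

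Cstb (ENSMUSG00000005054.7, chromosome 10, 78425669 to 78427622, plus strand) encodes stefin B, an inhibitor found in the cytosol and nucleus of most cells and the gene mutated in a human progressive myoclonus epilepsy. It had 44.4 and 51.5 FPKM in control pups against 98.2 and 92.7 in knockout pups. The groups did not overlap, with means of 48.0 ± 4.99 and 95.5 ± 3.88, a ratio of 1.99 and 0.98 on the log2 scale (standard error 0.10). Cstb lies on another chromosome than the stefin A cluster, and its ratio fell between those of Stfa3 and Stfa1. Over the alternatives its log2 fold change ran from 0.88 to 1.19.

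Cst6 (ENSMUSG00000024846.5, chromosome 19, 5344705 to 5349574, minus strand) encodes cystatin M/E, a secreted inhibitor of legumain and cathepsin L whose loss in mice disturbs cornification and hair follicles. It had 29.3 and 32.7 FPKM in control pups against 65.0 and 52.3 in knockout pups. The knockout pups differed from each other more than the controls did, and both lay above them. The means were 31.0 ± 2.41 and 58.7 ± 8.98, a ratio of 1.89 and 0.89 on the log2 scale (standard error 0.13), which ran from 0.74 to 1.10 over the alternatives.

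Cystatin M/E is known to act upstream of transglutaminases and the cornified envelope through the proteases it inhibits. Of 8 genes of that pathway, 3 were higher and 2 lower by limma (adjusted p under 0.05), with a median log2 fold change of -0.21. This median is close to the -0.20 of all tested genes, of which 8.99% were called higher and 25.4% lower. The 3 higher genes were the transglutaminases, which cross-link envelope proteins. Tgm5 went from 19.2 and 19.4 FPKM to 36.9 and 46.8 (log2 fold change 1.07, limma adjusted p = 0.00235), Tgm3 from 53.1 and 54.9 to 93.6 and 71.2 (0.59, limma adjusted p = 0.0208), and Tgm1 from 138 and 138 to 225 and 181 (0.54, limma adjusted p = 0.0166). The 2 lower genes were Lor, a main envelope protein, from 828 and 867 to 448 and 444 (log2 fold change -0.92, limma adjusted p = 0.00109), and Casp14, the caspase of cornifying cells, from 269.9 and 255 to 177 and 178 (-0.56, limma adjusted p = 0.00431). Without 1 control library, the adjusted p of Tgm1 and Tgm3 lay between 0.109 and 0.133, and that of Casp14 was 0.0555 without the first control. Without a filter on FPKM the calls of the 3 transglutaminases and of Lor were lost, at adjusted p between 0.0549 and 0.163.

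Cst3 (ENSMUSG00000027447.6, chromosome 2, 148871722 to 148875692, minus strand) encodes cystatin C, a secreted inhibitor of cathepsins made by many cell types. It was the exception among the 8 genes, with 143 and 148 FPKM in control pups against 101 and 94.5 in knockout pups. The means were 145 ± 3.80 and 98.0 ± 4.95, a ratio of 0.674 and -0.56 on the log2 scale (standard error 0.08). The log2 fold change of Cst3 lay between -0.62 and -0.35 over the alternatives, with the smallest size under median scaling. Other cystatin genes on chromosome 2, Cst8, Cst9, Cst10, Cst11, Cst12, Cst13 and Cstl1, were listed at 0 in all 4 libraries, and Cst7 did not exceed 0.263 FPKM.

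Fetub (ENSMUSG00000022871.13, chromosome 16, 22918334 to 22939778, plus strand) encodes fetuin B, a plasma protein made by the liver that inhibits ovastacin and meprins and is needed for female fertility. It had the largest difference of the 8 genes and ranked 23 of 13609 by log2 fold change. Its FPKM was 1.66 and 1.99 in control pups against 57.9 and 54.9 in knockout pups. The means were 1.82 ± 0.235 and 56.4 ± 2.14, a ratio of 30.9 and 4.35 on the log2 scale (standard error 0.10). By level, Fetub moved from rank 10859 of the tested genes to rank 869. Over the alternatives its log2 fold change ran from 4.26 to 4.88.

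The relatives of Fetub beside it on chromosome 16 were close to absent in all libraries. Ahsg, which encodes fetuin A and lies from 22891277 to 22899449, did not exceed 0.219 FPKM. Hrg, Kng1 and Kng2, which encode histidine-rich glycoprotein and kininogens, were listed at 0 in all 4 libraries, as was Spp2 on chromosome 1. The liver markers Alb and Serpina1a were at 0 as well, and Apoa1 and Ttr did not exceed 0.191 FPKM. In the astacin family, Mep1a, Mep1b and Astl, which encode meprins and ovastacin, and Tll2 were each under 0.5 FPKM in every library. Of the 2 that passed the filter, Tll1 went from 4.63 and 4.57 FPKM to 2.43 and 2.55 (log2 fold change -0.68, limma adjusted p = 0.00715) and Bmp1 from 32.3 and 31.5 to 25.3 and 27.8 (-0.25, limma adjusted p = 0.0699). Without 1 control library the adjusted p of Tll1 was 0.0799 or 0.0755.

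Of the cysteine proteases that stefins and cystatins inhibit, Ctsh and Ctsl were higher. Of 10 tested cysteine cathepsins and legumain, 2 were higher and 0 lower by limma (adjusted p under 0.05), with 4 higher and 2 lower at an unadjusted p under 0.05 and a median log2 fold change of 0.03. Over all tested genes 8.99% were called higher and 25.4% lower, with a median of -0.20. Ctsh, an aminopeptidase, went from 45.0 and 48.4 FPKM to 90.1 and 82.5 (log2 fold change 0.87 ± 0.09 as standard error, limma adjusted p = 0.00147). Ctsl, the endopeptidase that cystatin M/E inhibits, went from 56.9 and 56.5 to 104 and 92.9 (log2 fold change 0.78 ± 0.09 as standard error, limma adjusted p = 0.00209). Lgmn, its other target, had 10.1 and 15.9 against 12.7 and 11.8, and the groups overlapped (log2 fold change -0.05, limma adjusted p = 0.862). Ctsb had 43.1 and 52.7 against 71.5 and 58.4 (log2 fold change 0.43, limma adjusted p = 0.0548). With median scaling 5 were called higher, with Ctsb, Ctsf and Ctsc beside Ctsh and Ctsl. Outside the cysteine class, the aspartic protease Ctsd went from 299.6 and 322 to 493 and 398 (log2 fold change 0.51, limma adjusted p = 0.0231). That call was lost with quantile normalization and without a filter on FPKM (limma adjusted p = 0.0530 and 0.167). It was also lost without either control (log2 fold change 0.46 and 0.56) or without the first knockout (0.36).

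Inhibitors of other protease classes differed in both directions. Of 12 tested, 5 were higher and 1 lower by limma (adjusted p under 0.05), with a median log2 fold change of 0.26, beside 8.99% higher, 25.4% lower and a median of -0.20 over all tested genes. Slpi, an inhibitor of leukocyte elastase, went from 1.53 and 1.50 FPKM to 99.6 and 71.3 (log2 fold change 5.09, limma adjusted p = 3.1e-05). Spink7 went from 1.08 and 1.29 to 29.0 and 37.0 (log2 fold change 3.95, limma adjusted p = 5.1e-05) and Wfdc12 from 0.210 and 0.398 to 7.25 and 11.4 (2.96, limma adjusted p = 0.000494). Wfdc12 passed the filter through the knockouts only. Spink5, the kallikrein inhibitor lost in Netherton syndrome, and Wfdc5 were also higher, at 1.06 and 0.40, and are named after their values were seen. Without 1 control library the adjusted p of Wfdc5 was 0.116 or 0.103. Wfdc21 was lower, from 88.0 and 102 to 9.57 and 6.47 (log2 fold change -3.43, limma adjusted p = 0.000169).

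**Figure D4:**
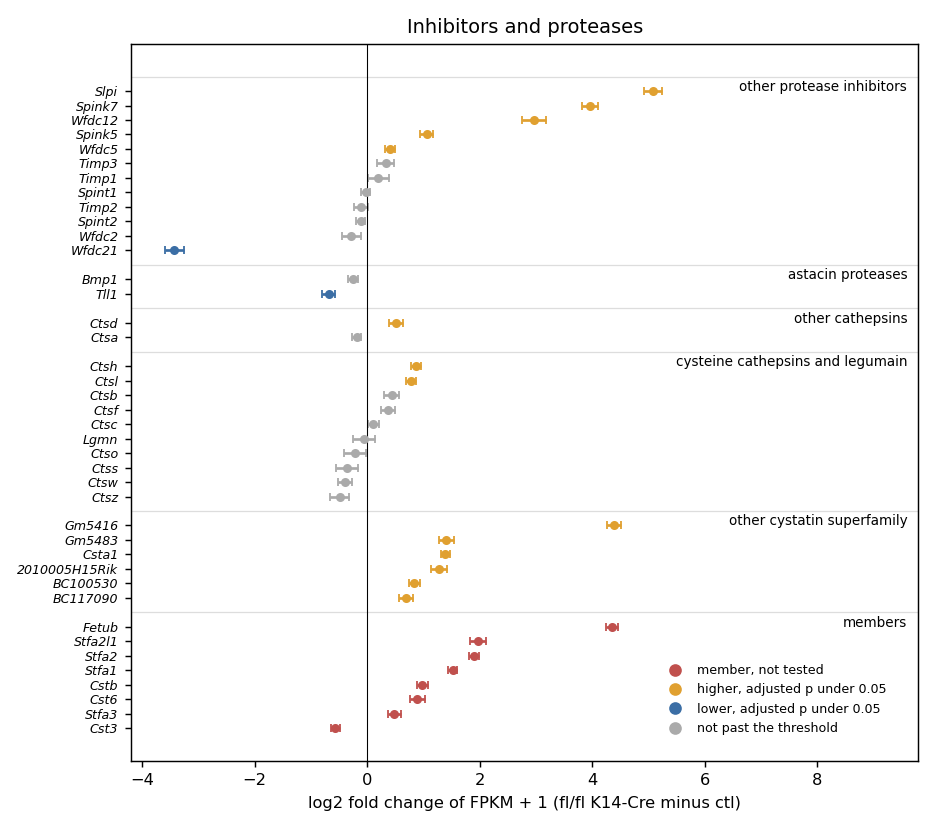
Log2 fold change with its standard error for the 8 genes and for the tested genes of the other inhibitor and protease lists. The 8 genes reach from -0.56 for Cst3 to 4.35 for Fetub, the cysteine cathepsins and legumain from -0.49 for Ctsz to 0.87 for Ctsh.

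Markers of other cells were read beside these genes. The 8 keratinocyte markers, whose presence bears on the epidermal label, all passed the filter, and their summed FPKM was 27351 and 28928 in control pups against 24625 and 28076 in knockout pups, with Krt14 higher and Krt1, Krt15 and Lor lower. Stefin A genes are also known from neutrophils. Of 14 neutrophil markers, 13 were at or under 0.5 FPKM in every library, with Elane, Ly6g, Fcnb and Cebpe at 0, and the sum over the list was 0.988 and 1.78 in control pups against 7.88 and 6.56 in knockout pups. The 1 tested marker was Cxcr2, at 0.127 and 0.208 against 6.51 and 5.56 (log2 fold change 2.59, limma adjusted p = 0.000202). Cxcr2 passed the filter through the knockouts only, and it made up most of the knockout sums of the list.

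Cst3 is abundant in macrophages, dendritic cells and fibroblasts, and some markers of these cells were lower in the same libraries, in which 25.4% of all tested genes were called lower and 8.99% higher. Of 8 tested macrophage and Langerhans markers 5 were lower and 0 higher (limma, 0 higher at an unadjusted p under 0.05), and the summed FPKM of the list was 41.7 and 52.5 in the controls against 25.2 and 20.7. Cd74 went from 13.1 and 16.4 to 4.61 and 4.39, while Cd207 did not exceed 0.0417 FPKM in any library. Of 6 tested dermal fibroblast markers 3 were lower, Dcn, Postn and Col1a2, and 0 higher (limma, 1 higher at an unadjusted p under 0.05). The sums of that list were 168 and 164 against 67.5 and 85.7, and Dcn and Postn made up most of them. Dcn went from 57.0 and 62.7 to 16.9 and 21.4. Col1a1 and Col3a1 overlapped between the groups and lay far below Dcn. Col1a1 had 0.614 and 0.891 FPKM in the controls against 1.27 and 0.585. Col3a1 had 0.746 and 1.45 against 1.06 and 0.787. Pdgfra went the other way, from 0.299 and 0.250 to 0.789 and 0.668 (limma adjusted p = 0.0601), and passed the filter through the knockouts only. Of 7 liver and blood markers 3 passed the filter, all of them blood genes (Hba-a1, Hbb-bs and Alas2), and 2 were lower, Hba-a1 and Hbb-bs. The sums of that list, 80.7 and 74.8 against 37.6 and 47.9, are thus almost all blood. The part of these cells in the difference of Cst3 was not tested.

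The order of levels among the 8 genes changed between genotypes. In the controls it was Stfa3, Stfa1, Cst3, Stfa2, Cstb, Cst6, Fetub and Stfa2l1 from high to low, and no neighbors in this order overlapped over the 2 pups. In the knockouts it was Stfa3, Stfa1, Stfa2, Cst3, Cstb, Cst6, Fetub and Stfa2l1. There the libraries of Cst3 and Cstb overlapped, as did those of Cst6 and Fetub. Cst3 RNA thus lay above Cstb RNA in the controls, at 145 against 48.0 FPKM, and level with it in the knockouts, at 98.0 against 95.5. Protein was not measured in these libraries.

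The genes with the most similar profile were found by the Euclidean distance between log2(FPKM + 1) values centered on the mean of the 4 libraries. For Fetub the nearest was Gm5416 of the stefin cluster, at a distance of 0.130, followed by Tmem45b and Sprr1b, a cornified envelope precursor. For Stfa2 they were Defb6, Prkcq and Trex1, for Stfa2l1 Trex1, Fabp5 and Stom, and for Stfa1 Acot11, Kif17 and Gml2. Cst6 was nearest to Prss53, Cd44 and Stx11, and Cstb to Fscn1, Grid2ip and Clic4. Cst3 was nearest to Mcm5, Zfp768 and Zc3h14, at distances from 0.0132 to 0.0246, and Stfa3 to Chchd10, Mtfp1 and Rap1gap2. With 4 libraries in 2 groups, such likeness mainly repeats the size of the difference between genotypes on the scale of log2(FPKM + 1). The added 1 shrinks the differences of genes near 0 FPKM, so neighbors can differ widely in level and in ratio. Defb6, the nearest to Stfa2, had 0.102 and 0.0942 FPKM in control pups against 3.05 and 3.10 in knockout pups.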

How the data were processed

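Reads from total RNA of 4 epidermis samples were processed by the authors with a workflow of their institution on GRCm38 with an aligner and a strand setting that are not given in the sources used here. The authors deposited 1 table per library. Its FPKM values are scaled by the authors for transcript length and library size, its TPM values are scaled by the authors to the same sum, and its coverage signal is deposited as mean read depth per base. Where an identifier had several rows, their FPKM and TPM were added up. Coverage divided by FPKM gave 6.085 and 6.274 aligned gigabases in Skiv2l ctl and 5.843 and 5.931 in Skiv2l fl/fl K14-Cre; no counts were used, so counting error is unknown.

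Protein-coding genes of GENCODE M21 with FPKM above 0.5 in at least 1 library (13609) entered a two-sided test of log2(FPKM + 1) by limma 3.58.1 under R 4.3.3, with a trend in eBayes. Adjustment was by Benjamini-Hochberg across these genes, with a threshold of 0.05. p-values and standard errors rest on the spread between pups of a genotype, which eBayes moderates with that of genes of similar level. The script was tested on simulated data. The 8 genes and all lists were chosen with earlier results of these data known. The text names the 8 genes, tested genes of the cystatin, cathepsin, astacin and cystatin M/E pathway lists, the 3 largest called rises and falls of the other inhibitors, genes above 0.5 FPKM within 250 kb of a Stfa gene, the 3 nearest profiles of each gene, markers and Skiv2l; list genes under the filter and genes outside these rules were named after their values were seen. Shared 75-base stretches and coding sequences came from GENCODE M21 transcripts, aligned globally with Biopython 1.88, and promoters from RefSeq (GRCm38.p6), where 6 of the 8 genes matched. Same-numbered pups did not deviate together (r = -0.0770 across 13609 genes, which are not independent). Alternatives were a pseudocount of 0.1, FPKM above 1 in at least 2 libraries, no filter, TPM, median scaling, quantile normalization, a replicate block, eBayes without a trend, and leaving out each library.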

Additional observations from a re-analysis of the deposited data

Results flagged for a closer look

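Gm24801, annotated as an snRNA of 105 bases next to Gm5416 in the stefin A cluster, was outside every comparison above. The controls had 0 and 0.370 FPKM of it and the knockouts 1.18 and 1.32, with a knockout mean of 1.25 that lay above both controls. The difference was not tested, and it is a description only.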

How the results depend on the processing

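The log2 fold change of each of the 8 genes kept its sign with TPM, median scaling and quantile normalization. The other alternatives could not turn a sign. The filters, the replicate block and the fit without a trend leave the fold change as it is. Where the genotypes do not overlap, another pseudocount or leaving out 1 library cannot turn it. The median of 1.25 over the 8 genes was 1.46 with median scaling and lay between 1.21 and 1.29 when 1 library was left out. The cause of the changes below was not tested.

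Of all genes tested, 1223 were called higher and 3455 lower. Without a filter these counts were 475 and 927, with median scaling 1894 and 1623, and with quantile normalization 1917 were lower. Leaving out 1 library gave 497 to 1146 higher and 805 to 3135 lower, with the lowest counts without a control library. Cysteine cathepsins and legumain called higher numbered 2, and 5 with median scaling. Those called lower numbered 0, and 2 with TPM (Ctsw and Ctsz), 1 without a trend (Ctsw) and 1 with the replicate block (Ctsz). Of the single genes recomputed under each alternative, 16 lost their call without a filter, among them Skiv2l (adjusted p = 0.0706), BC100530 and Krt14. Of the cystatin M/E pathway 3 were higher and 2 lower, 4 lower with quantile normalization, and 1 higher when either control was left out. Other protease inhibitors called higher numbered 5, and 3 without a filter. The 6 stefin A relatives were 4 without a filter and 5 without the second control. Lgmn, at -0.05 and not called, was 0.15 with median scaling, 0.11 with quantile normalization, and between -0.35 and 0.25 when 1 library was left out.

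The replicate numbers only name the pups, and with the replicate block 1264 genes were higher and 3393 lower. Besides Ctsz, the block moved Ctsb past the threshold (adjusted p = 0.0439) and Dtx3l out of it (0.0504), and the calls of the other 31 single genes recomputed with it did not change. With 2 pups per genotype, small differences such as that of Stfa3 rest on few values.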
